A study of Homo sapiens with 18 samples.

Results

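Heat shock proteins, the DNAJ family and the cytosolic chaperonin were followed as 1 set of genes. It holds the protein-coding genes whose symbols begin with HSPA, HSPB, HSPD1, HSPE1, HSPH1, HSP90A, DNAJA, DNAJB or DNAJC, together with CCT2 to CCT8 and TCP1. The endoplasmic reticulum members HSPA5, HSPA13, DNAJB9, DNAJB11, DNAJC3 and DNAJC10 were left out. Of 79 genes with such symbols, 63 had at least 10 counts in 3 or more of 18 libraries, out of 60709 genes in the table. By class they were 12 HSP70 and HSP110 genes, 2 HSP90, 3 DNAJA, 7 DNAJB and 23 DNAJC genes, 3 small heat shock genes, 8 chaperonin subunits and 3 mitochondrial chaperones. Another 2, HSPBP1 and HSPBAP1, entered by their spelling: the first encodes an HSP70 nucleotide exchange factor and the second a protein that associates with HSPB1. Of the 63, 61 passed the filter for testing, and HSPB6 and DNAJC28 did not. The other 16 had too few counts, at most 17 in any library (CCT6B), and include HSPB2, HSPB3, HSPB7, HSPB9, DNAJA4, DNAJB7, DNAJB8, DNAJB13 and DNAJC12.

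The cells were MDA-MB-231, an established line of triple-negative breast cancer. All groups carried a short hairpin RNA, either against luciferase (sh-LUC, the control) or against IGFBP6 (sh-IGFBP6), whose secreted product binds insulin-like growth factors. Exposure lasted 24 h: DHA (docosahexaenoic acid, an omega-3 fatty acid) at 200 µM, erastin at 2.5 µM, or the vehicle of 0.5% ethanol plus 0.5% DMSO. Erastin blocks the cystine transporter, which starves cells of glutathione, and both compounds were studied as inducers of ferroptosis, a cell death by lipid peroxidation. There were 3 libraries in each of the 6 groups. The sources used here do not say whether those came from separate cultures or how many hairpin clones were used. All p-values therefore measure the spread between these libraries, which may be technical.

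Chaperones bind proteins that are not yet folded or have lost their fold. HSP70 proteins hold and release such clients in cycles of ATP hydrolysis, J-domain proteins of the DNAJ families bring them clients and start hydrolysis, and HSP110 and other exchange factors reset the cycle. HSP90 finishes signalling clients such as kinases and receptors, the small heat shock proteins hold clients without ATP, and the ring-shaped chaperonins enclose them. When unfolded proteins accumulate, the transcription factor HSF1 binds heat shock elements, inverted repeats of the letters GAA and TTC, and raises a subset of these genes, while other members are made at all times.

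Promoter stretches of 9 of the 19 members that hold the letters HSF1 recognises are shown first, chosen for that match and for the responses described below. HSPH1, DNAJB2, HSPA12A and CCT7, which are described too, had no match and are not shown. RefSeq promoter windows on GRCh38.p14 were found for 57 of 63 members and searched over the 250 bases before the start site. The letters sought were 2 facing units (GAANNTTC or TTCNNGAA, each of which reads the same on both strands) and 3 alternating units (GAANNTTCNNGAA or TTCNNGAANNTTC, the reverse complement, both of which contain a 2-unit match). Capitals mark the 2-unit matches in each stretch, which holds those nearest the start site, and overlapping matches run together.

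HSPA6, chr1:161524451-161524493, plus strand: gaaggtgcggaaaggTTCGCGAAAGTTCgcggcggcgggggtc
HSPA1A, chr6:31815422-31815459, plus strand: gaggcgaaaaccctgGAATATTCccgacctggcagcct
HSPA1B, chr6:31827618-31827655, plus strand: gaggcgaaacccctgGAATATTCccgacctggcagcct
DNAJB1, chr19:14518422-14518489, minus strand: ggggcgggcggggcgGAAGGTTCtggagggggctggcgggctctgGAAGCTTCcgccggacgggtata
HSP90AA1, chr14:102087104-102087133, minus strand: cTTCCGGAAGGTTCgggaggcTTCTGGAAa
HSPA8, chr11:123062171-123062199, minus strand: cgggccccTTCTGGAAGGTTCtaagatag
HSPD1, chr2:197500062-197500090, minus strand: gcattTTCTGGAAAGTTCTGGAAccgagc
DNAJB4, chr1:78004826-78004863, plus strand: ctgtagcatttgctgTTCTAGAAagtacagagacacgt
HSPB1, chr7:76302476-76302513, plus strand: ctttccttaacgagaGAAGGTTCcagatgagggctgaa

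In GENCODE release 29 the stretches of HSPA1A, HSPA1B and HSPB1 lay in no gene, those of HSPA6 and DNAJB1 only in introns (of AL590385.2, and of TECR and a longer DNAJB1 transcript). Those of HSP90AA1 and HSPA8 lay inside exons of longer transcripts of the same genes, and that of HSPD1 inside exons of HSPD1 and HSPE1. The DNAJB4 stretch shared 10 bases with an exon of that gene. At least one 2-unit match stood in 19 of the 57 windows (33.3%), and a 3-unit match in 6 (10.5%): HSPA6, HSPA8, HSP90AA1, HSP90AB1, HSPD1 and DNAJB6. Among all 27305 genes with a window the shares were 14.0% and 0.557%. By class the 2-unit letters were in 6 of 10 HSP70 and HSP110 windows, 2 of 2 HSP90, 3 of 3 small heat shock, 3 of 7 DNAJB, 2 of 7 chaperonin (CCT2 and TCP1) and 1 of 20 DNAJC windows (DNAJC15). A match is a description of these letters, not a measured site.

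Library totals ran from 2708143 to 7977429 counts in 17 libraries. Replicate 3 of sh-IGFBP6 erastin stood apart with 609936 counts, 54.3759% of them on the mitochondrial ribosomal RNAs (0.0349% to 0.5043% elsewhere) and 4315 on the members. The hairpin's target IGFBP6 was at 12.3 to 20.9 CPM in the 9 sh-LUC libraries and 0.420 to 3.81 CPM in the 9 sh-IGFBP6 libraries. CPM values are scaled to the TMM effective library size, a scaling that takes most genes as unchanged. In bulk RNA, fewer cells of a kind and less of a transcript per cell cannot be told apart. Markers of the line (VIM, CD44, AXL and EGFR) summed to 3298 to 4564 CPM, but single markers differed between the lines. In vehicle CD44 averaged 1335 CPM in sh-LUC and 651 in sh-IGFBP6, and AXL 1579 and 952. VIM averaged 757 CPM in sh-LUC and 1138 in sh-IGFBP6, and EGFR 543 and 1089. Genes listed as low in such cells (ESR1, PGR, ERBB2, EPCAM, CDH1 and GATA3) summed to 79.6 to 127 CPM, mostly ERBB2. Leukocyte markers summed to at most 5.31 CPM. Fibroblast and endothelial markers summed to 37.3 to 42.6 CPM in sh-LUC vehicle, 14.8 to 22.7 under either compound and at most 2.43 in sh-IGFBP6, in sh-LUC mostly PDGFRB, with CDH5 and DCN at or near 0. The part of these markers in the results was not tested.

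In untreated sh-LUC cells the set was led by 2 HSP90 genes and the constitutive HSP70. Per kilobase of exon, the scale on which genes can be compared, HSP90AB1 stood at 486 CPM, HSPA8 at 243, HSP90AA1 at 198, HSPB1 at 103 and CCT3 at 79.9, while the stress-inducible HSPA1B, HSPA1A and HSPA6 stood at 23.5, 5.27 and 0.443. After erastin in sh-LUC cells that order changed: HSPA1B reached 574 CPM per kilobase, between HSP90AA1 (685) and HSPA8 (544), and HSPA6 reached 393. In sh-IGFBP6 cells after DHA, HSPA1B (248) came next after HSP90AB1 (789), HSPA8 (705) and HSP90AA1 (589), and HSPA6 was at 4.56. No test was made between genes.

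**Figure D1:**
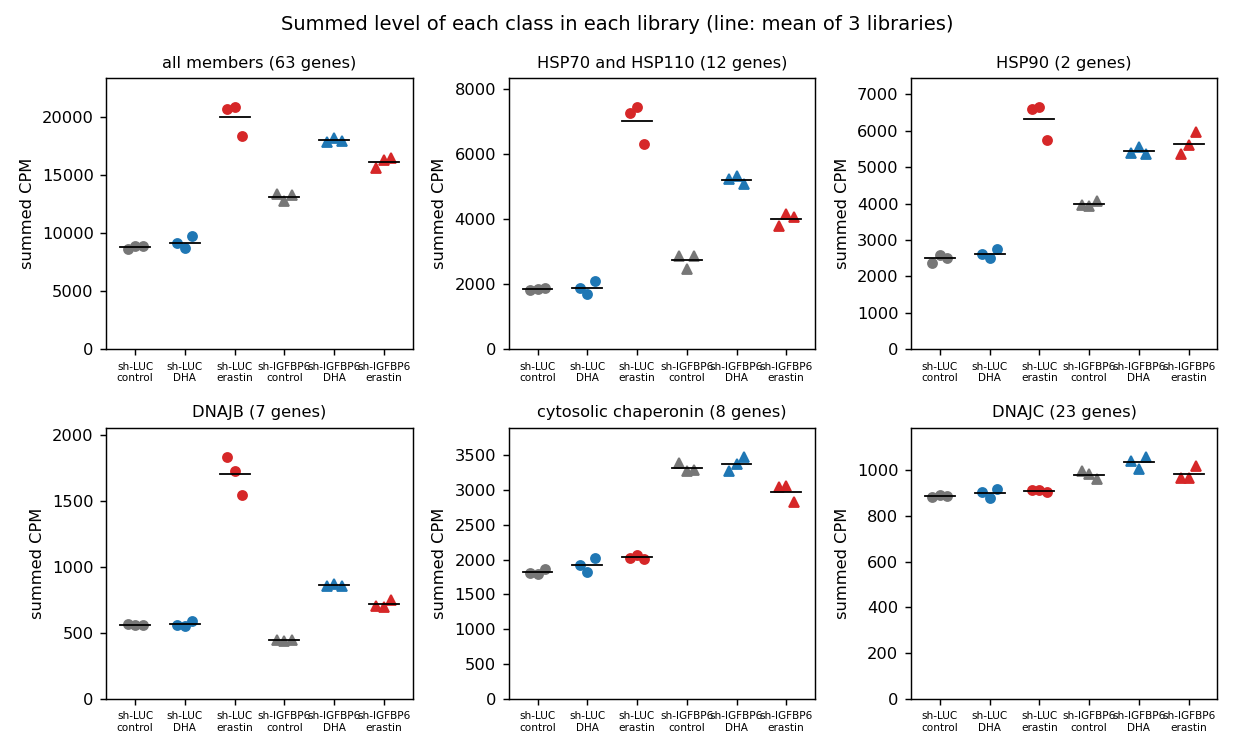
Summed level in CPM of all 63 genes and of 5 classes, 1 point per library (circles sh-LUC, triangles sh-IGFBP6, grey vehicle, blue DHA, red erastin) with the mean of 3 libraries as a line. The whole set is highest in sh-LUC erastin (19954 CPM) and does not overlap between sh-LUC and sh-IGFBP6 vehicle (8774 and 13111 CPM).

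Summed over all 63 members, the level was 8774 ± 155 CPM (SD, n = 3) in sh-LUC vehicle, 9164 ± 521 in sh-LUC DHA and 19954 ± 1363 in sh-LUC erastin. In sh-IGFBP6 it was 13111 ± 335 in vehicle, 17991 ± 189 in DHA and 16107 ± 430 in erastin. The sh-LUC vehicle and DHA libraries overlapped, and the other groups of each line stood clear of their vehicle libraries. HSP70 and HSP110 genes ran from 1857 ± 35.0 CPM in sh-LUC vehicle to 7009 ± 605 in sh-LUC erastin. DNAJC genes stayed between 888 ± 5.07 and 1034 ± 27.5 CPM in all 6 groups. The plot of summed levels by class shows each library.

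Erastin in sh-LUC cells was compared with vehicle to see how the control line's chaperones respond to 24 h of the compound. The inducible HSP70 genes, both HSP90 genes, HSPH1, DNAJB1 and the mitochondrial chaperones rose, with the largest fold for HSPA6, which was almost silent before. HSPA6 reached 10 counts in 9 libraries, all of them treated, so it is in the set only through libraries where it was high. Of 61 members 33 rose, 5 fell and 23 were not called, with a median log2 fold change of 0.19 against -0.02 over all 15189 genes. A gene was called at an edgeR quasi-likelihood p below 0.05 after Benjamini-Hochberg adjustment over all genes. Each SE given with an edgeR fold change was worked back from the statistic of that test. In this comparison 21.4% of all genes rose and 24.4% fell (45.9% called), so the members' 54.1% with a rise stood above the background and their 8.2% with a fall below it. In 42 members the erastin and vehicle libraries did not overlap, against 53.9% of all genes. The members with a rise of at least 2-fold were 13: HSPA6, HSPA1A, HSPA1B, HSPA1L, HSPH1, HSPA8, HSPA4L, HSP90AA1, DNAJB1, DNAJB4, DNAJB6, HSPD1 and HSPBAP1. The 5 falls were all smaller than 2-fold.

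HSPA6, a strictly stress-inducible HSP70 that mice lack (chr1:161524540-161526910, plus strand, GRCh38), went furthest. Its level was 1.77, 0.902 and 0.479 CPM in the vehicle libraries, which rest on 5, 3 and 2 counts, and 969, 991 and 834 CPM with erastin (log2 fold change 9.87, SE 0.31, edgeR adjusted p = 5.8e-12). HSPA1A and HSPA1B, neighbouring genes for the main inducible HSP70 (chr6:31815464-31817946 and chr6:31827735-31830255, both on the plus strand), were both far above vehicle. HSPA1A was at 12.7, 12.6 and 13.9 CPM before and 517, 521 and 415 after (log2 fold change 5.20, SE 0.11, edgeR adjusted p = 1.8e-44). HSPA1B was at 60.5, 60.4 and 57.0 CPM before and 1546, 1588 and 1204 after (4.61, SE 0.12, 1.4e-15). The pair is nearly identical in sequence, so how reads were divided between them is uncertain. HSPA6 likewise has a pseudogene copy, HSPA7. In each of these genes erastin replicate 3 was the lowest of the 3 treated libraries, and no vehicle library came near.

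The constitutive HSP70, HSPA8, rose from 1132, 1180 and 1227 CPM to 2671, 2744 and 2505 (log2 fold change 1.16, SE 0.07, edgeR adjusted p = 3.3e-29). HSPH1, an HSP110 exchange factor, went from 301, 281 and 282 CPM to 1134, 1168 and 948 (1.91, SE 0.06, 2.2e-36). These shifts are smaller in fold than those of the inducible genes but larger in CPM for HSPA8 than for HSPA1A. The other HSP110 genes HSPA4L (1.08) and HSPA4 (0.42), and HSPA1L (1.92, at most 5.22 CPM), were called higher. HSPA14, a ribosome-associated HSP70, was the class's only member called lower, at 19.5, 21.9 and 23.5 CPM before and 17.5, 17.2 and 17.5 after (-0.33, edgeR adjusted p = 0.0342). HSPA2, HSPA12A and HSPA12B were not called.

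Both cytosolic HSP90 genes rose. HSP90AA1, the inducible form, went from 958, 1092 and 1067 CPM to 3761, 3863 and 3159 (log2 fold change 1.79, SE 0.07, edgeR adjusted p = 4.7e-48). HSP90AB1, the constitutive form, went from 1417, 1480 and 1447 to 2842, 2782 and 2578 CPM (0.92, SE 0.06, 2.5e-26). Neither gene had overlapping libraries between the groups. HSP90AA1 shares 197 exonic bases with WDR20 on the opposite strand, and DNAJB1 211 with TECR.

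Among J-domain genes the DNAJB class rose most often. DNAJB1, the stress-inducible partner of HSP70, went from 214, 192 and 180 CPM to 1115, 1059 and 914 (log2 fold change 2.40, SE 0.06, edgeR adjusted p = 7.1e-54). DNAJB4 went from 19.1, 18.9 and 26.6 to 77, 75 and 68 CPM (1.73, SE 0.11, 9.8e-29). DNAJB6, known for holding back aggregation of polyglutamine proteins, rose (1.15), as did DNAJB14 (0.32), which sits in the endoplasmic reticulum membrane. DNAJB5 fell (-0.45), and DNAJB2 and DNAJB12 were not called. DNAJA1, a general HSP70 partner, rose slightly (0.30, SE 0.06, 2.5e-05), and DNAJA2 and DNAJA3 were not called.

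The DNAJC class, whose members share the J domain but serve separate tasks, was mixed: 7 rose, 3 fell and 12 were not called of 22. The risers were DNAJC25 (0.90), DNAJC2 (0.65), a ribosome-associated factor, DNAJC30 (0.63), DNAJC16 (0.46), DNAJC11 (0.34), DNAJC7 (0.32) and DNAJC6 (0.26), the neuronal form of the clathrin-uncoating auxilins. Those that fell were DNAJC22 (log2 fold change -0.90, SE 0.21, edgeR adjusted p = 1.6e-04), DNAJC9 (-0.45), a histone chaperone, and DNAJC5 (-0.19), the synaptic vesicle protein CSP-alpha. All values in this and the preceding sentence are log2 fold changes.

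The mitochondrial chaperones all rose. HSPD1, the HSP60 ring, went from 319, 341 and 325 CPM to 787, 796 and 716 (log2 fold change 1.22, SE 0.06, edgeR adjusted p = 1.7e-40). HSPA9, the HSP70 that pulls proteins into the matrix, went from 261, 283 and 283 to 561, 529 and 528 CPM (0.97, SE 0.05, 8.3e-34). HSPE1, the HSP10 lid of the ring, rose less, from 18.4, 18 and 17.7 to 25.5, 26.6 and 26.1 CPM (0.53, SE 0.13, 2.0e-04). HSPD1 and HSPE1 are transcribed away from each other and share 281 exonic bases on opposite strands, so reads there cannot be told apart without a stated strand setting. The share of counts on mitochondrially encoded messenger RNAs was 6.1483% to 9.3126% in these erastin libraries and 2.6996% to 3.1483% in vehicle, and its part in these results was not tested.

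The cytosolic chaperonin (TRiC), which folds actin and tubulin, moved little. TCP1 rose from 219, 225 and 227 to 305, 316 and 306 CPM (log2 fold change 0.46, SE 0.06, edgeR adjusted p = 3.4e-12). CCT3 (0.19), CCT4 (0.19), CCT2 (0.18) and CCT6A (0.18) rose by less, and CCT5 (-0.01, SE 0.05), CCT7 (0.00, SE 0.06) and CCT8 (0.05, SE 0.06) were not called. Of the small heat shock genes HSPB1 rose from 177, 166 and 160 to 215, 225 and 184 CPM (0.31, SE 0.06, 1.9e-05). HSPB8, the partner of BAG3 in selective autophagy, rose from 3.18, 4.81 and 5.03 to 7.54, 9.19 and 8.31 CPM (0.91, SE 0.25, 0.00147).

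Among the members followed by name through the alternatives, calls that rested on 1 library here were those of small size. CCT2 was lost without sh-LUC control replicate 1 (edgeR adjusted p = 0.0671) or erastin replicate 2 (0.0519), and CCT4 without erastin replicate 1 (0.104). Without that erastin replicate 1, 31 members rose where 33 had, so a rise not followed by name was lost too. HSPA14 was lost without sh-LUC control replicate 2 or 3 or any erastin replicate (0.0554 to 0.209). DNAJB5 was lost without any 1 of the 6 libraries compared, or without sh-IGFBP6 erastin replicate 3 (0.0512 to 0.152). DESeq2 did not call HSPA14 (0.126) or DNAJB5 (0.146), and called 6 DNAJC genes higher where edgeR called 7. With library size only TCP1 (0.36), HSPB1 (0.20), DNAJA1 (0.20), DNAJC5 (-0.30), CCT2 (0.07), CCT3 (0.09), CCT4 (0.08) and CCT6A (0.08) were not called.

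**Figure D2:**
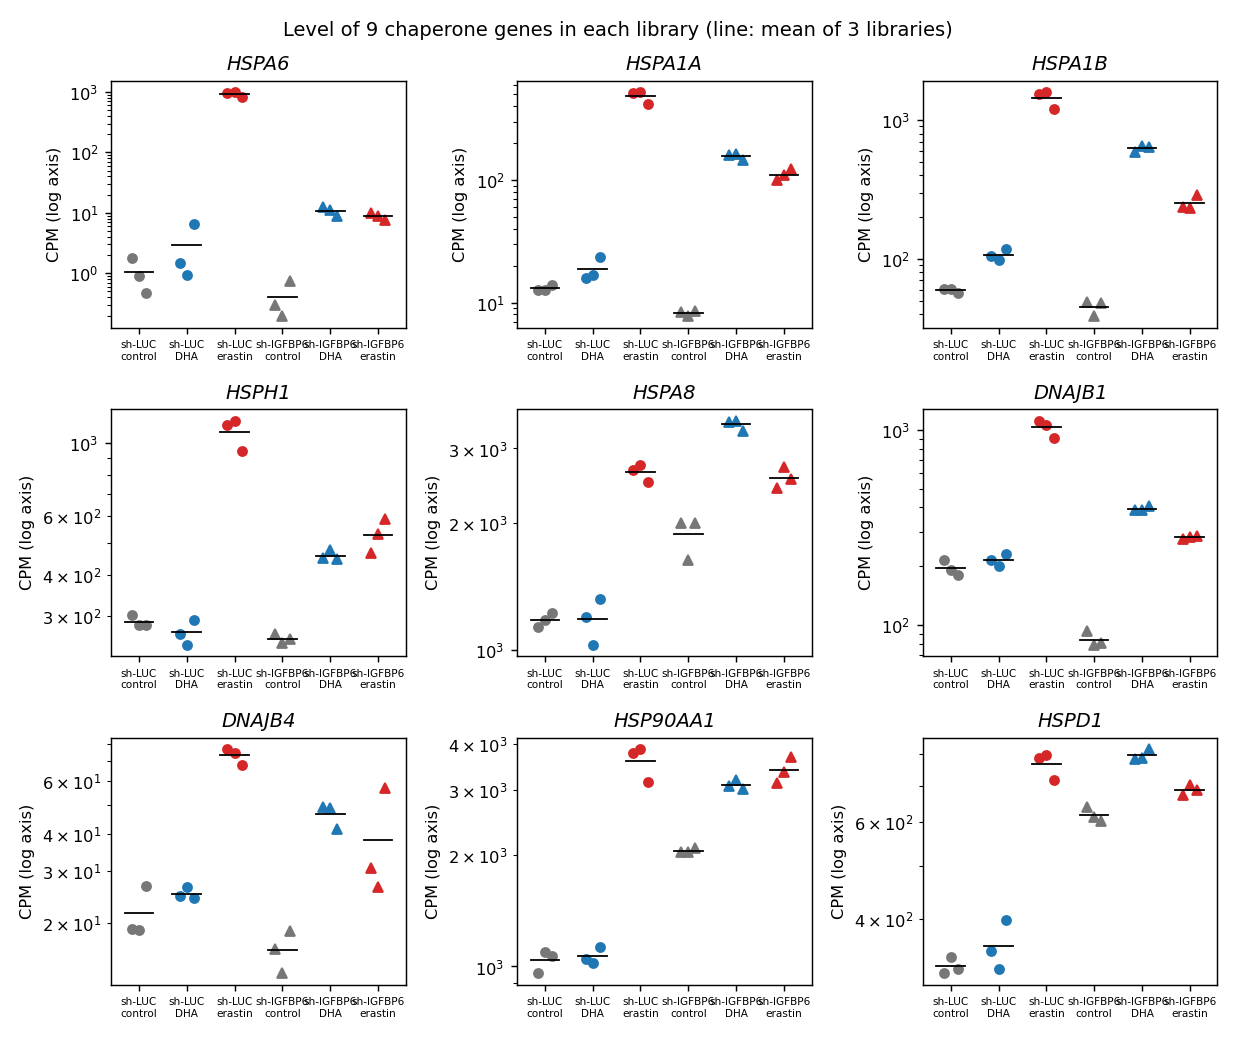
Level in CPM (log axis, a separate scale in each panel) of 9 members in each library, with the mean of 3 as a line; circles are sh-LUC and triangles sh-IGFBP6, grey is vehicle, blue DHA and red erastin. HSPA6 spans from below 1 to 991 CPM and is near 10 CPM in treated sh-IGFBP6 cells, and sh-LUC DHA sits with sh-LUC vehicle for most of the genes.

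DHA in the same sh-LUC cells left most of the set where it was. With DHA 5 members of 61 were called higher, 3 lower and 53 were not called (median log2 fold change 0.05 against 0.01 over all genes). The background was 16.8% called (7.14% higher, 9.63% lower), and the members' 13.1% lay below it. The libraries of 16 members did not overlap, against 30.0% of all genes. The largest rise was HSPA1B, at 105, 98.3 and 117 CPM against 60.5, 60.4 and 57.0 in vehicle (log2 fold change 0.85, SE 0.13, edgeR adjusted p = 1.2e-04). HSPBAP1 (0.84, 6.6e-04) and HSPA9 (0.38, 6.3e-09), at 360, 342 and 377 CPM against 261, 283 and 283, were higher too. HSPA1A (0.52, 0.0189) was at 15.9, 16.9 and 23.6 CPM against 12.7, 12.6 and 13.9, and DNAJC5 (0.20, 0.00614) made the fifth. Lower were DNAJC6 (-0.53, 8.1e-07), at 41.5, 40.9 and 39.9 CPM against 54.5, 61.9 and 59.2, DNAJC15 (-0.35, 0.00422), which sits in the mitochondrial inner membrane, and DNAJA1 (-0.21, 0.0102).

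The main responders to erastin were near their vehicle level with DHA. HSPA8 was at 1196, 1029 and 1324 CPM (log2 fold change 0.00, SE 0.07), HSP90AA1 at 1046, 1022 and 1131 (0.04, SE 0.07), DNAJB1 at 215, 200 and 232 (0.15, SE 0.06, edgeR adjusted p = 0.0971) and HSPH1 at 265, 245 and 292 (-0.11, SE 0.06). Their libraries overlapped those of vehicle, and so did those of HSPD1 (0.13, SE 0.06). HSPA6 was at 1.49, 0.926 and 6.55 CPM, where replicate 3, with 48 counts, stood above the 5 other DHA and vehicle libraries (1.59, SE 0.93, edgeR adjusted p = 0.307). Of the 8 chaperonin subunits, 7 DNAJB genes and 2 HSP90 genes edgeR and DESeq2 called 0. At an unadjusted edgeR p below 0.05 there were 2 chaperonin subunits (CCT3 and CCT8), 1 DNAJB gene (DNAJB1) and 0 HSP90 genes, all higher. HSPA1A was lost without DHA replicate 3 (edgeR adjusted p = 0.177) or any vehicle replicate (0.0804, 0.0844 and 0.0682). DNAJA1 was lost without DHA replicate 2 (0.0972) or vehicle replicate 2 (0.0965) or 3 (0.1), DNAJC15 without DHA replicate 2 (0.0596) or vehicle replicate 3 (0.0931), and DNAJC5 without vehicle replicate 3 (0.0872). DESeq2 did not call DNAJC15 (0.0994), and with library size only HSPA9 (0.43), HSPA1A (0.57), DNAJC5 (0.25), DNAJC15 (-0.29) and DNAJA1 (-0.16) were not called.

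**Figure D3:**
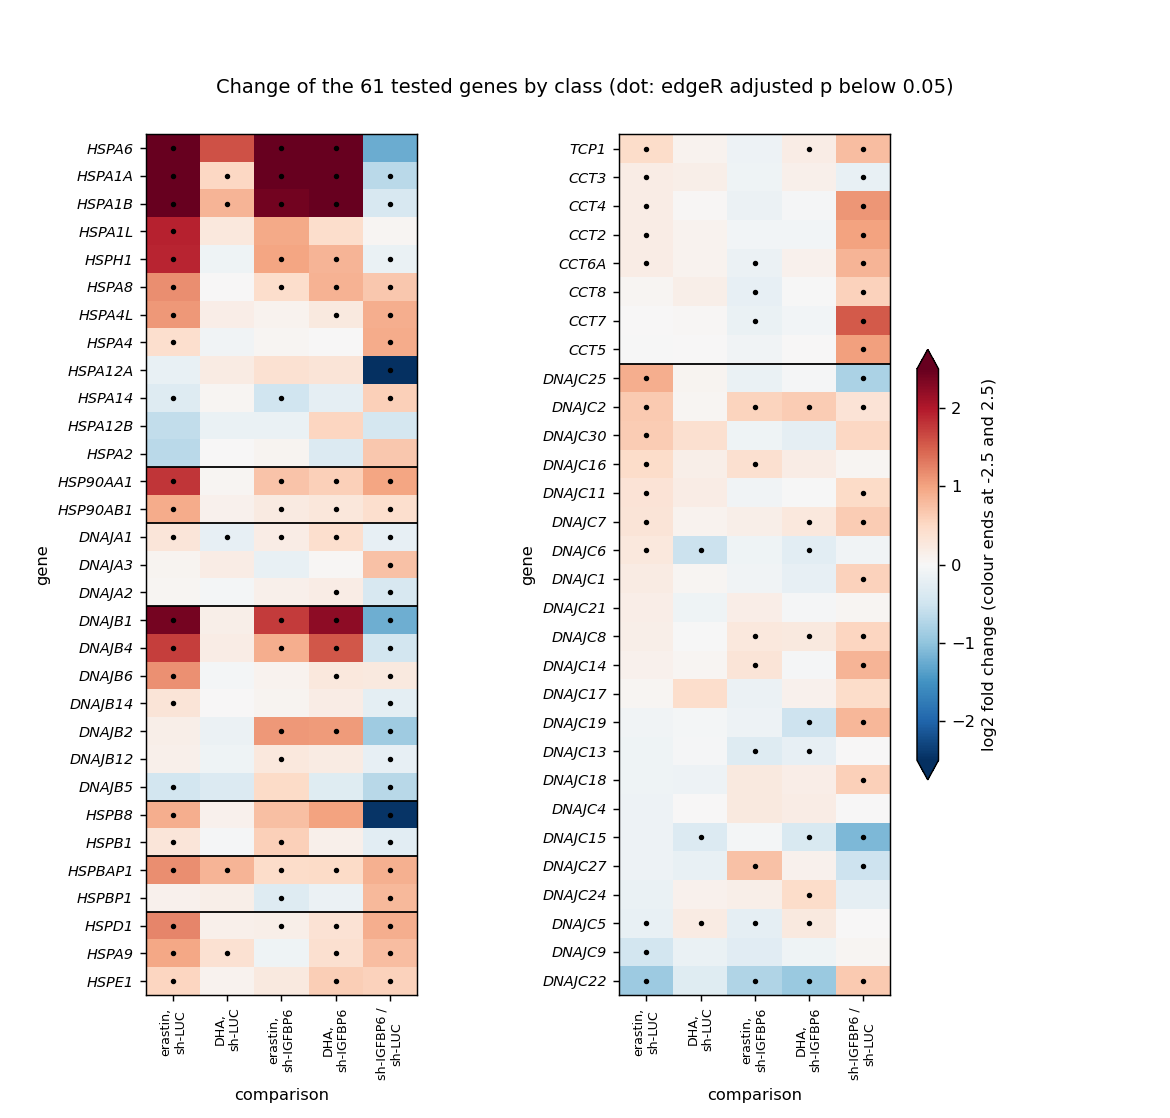
Log2 fold change of the 61 tested genes in 5 comparisons (4 treatments against vehicle and the untreated lines), with classes divided by lines and genes ordered within a class by the erastin change in sh-LUC; colour ends at 2.5 in either direction and a dot marks a call. The erastin column in sh-LUC holds 38 dots and the DHA column in sh-LUC 8, and the chaperonin stands out in the column of untreated lines, where all 8 subunits are called.

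The untreated lines were compared to see what the set looks like in sh-IGFBP6 cells before any compound. Of the chaperonin 7 of 8 subunits, both HSP90 genes and the mitochondrial chaperones were higher in sh-IGFBP6 cells, and the small heat shock genes, most DNAJB genes and the inducible HSP70 pair were lower. Of 61 members 29 were higher, 18 lower and 14 not called (median log2 fold change 0.34 against 0.01), beside a background of 64.6% called (32.5% higher, 32.1% lower). With so many genes different between the lines, the members' 77% is read against that share. In 47 members the lines did not overlap, against 67.3% of all genes. Scaling by library size only gave 28 higher and 7 lower, and the members no longer called included HSP90AB1 (0.51), HSPA1A (-0.58), HSPA1B (-0.29), HSPH1 (-0.07), DNAJB4 (-0.36), DNAJA1 (-0.10), HSPB1 (-0.17) and CCT3 (-0.08).

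All 8 chaperonin subunits were called, 7 of them higher. CCT7 was at 663, 618 and 652 CPM in sh-IGFBP6 against 228, 217 and 225 (log2 fold change 1.53, SE 0.05, edgeR adjusted p = 4.1e-52). CCT4 (1.11), CCT5 (1.02), CCT2 (1.00), CCT6A (0.84), TCP1 (0.78) and CCT8 (0.57) followed in log2 fold change, and none of the 7 had overlapping libraries. CCT3, which works in the same ring, was lower, at 288, 275 and 286 CPM in sh-IGFBP6 against 310, 315 and 337 (-0.19, SE 0.06, 0.00238). CCT4, CCT5 and TCP1 share exonic bases with a gene on the opposite strand (CCT5 1757 of them with AC012640.4), so some of their counts may belong to that gene.

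HSP90AA1 was at 2038, 2037 and 2091 CPM in untreated sh-IGFBP6 cells against 958, 1092 and 1067 (log2 fold change 0.98, SE 0.07, edgeR adjusted p = 1.0e-26). HSP90AB1 (0.42), HSPA8 (0.67), HSPA4 (0.92), HSPA4L (0.91), HSPD1 (0.91), HSPA9 (0.77), HSPE1 (0.57) and HSPA14 (0.59) were higher too. Lower in sh-IGFBP6 cells were several members of the HSP70 and DNAJB classes. DNAJB1 was at 92.7, 78.8 and 80.2 CPM against 214, 192 and 180 (-1.22, SE 0.07, 4.9e-28), DNAJB2 at 19.3, 16.0 and 17.0 against 30.1, 35.5 and 29.5 (-0.88), HSPA1A at 8.43, 7.71 and 8.61 against 12.7, 12.6 and 13.9 (-0.68, SE 0.21, 0.00427) and HSPA1B at 49.1, 38.5 and 48.5 against 60.5, 60.4 and 57.0 (-0.40, SE 0.15, 0.0292). HSPH1 (-0.17), DNAJB4 (-0.46) and HSPB1 (-0.27) were lower as well, and HSPA6, with 1, 1 and 3 counts, was not called.

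The largest single falls were those of HSPA12A and HSPB8, followed by DNAJB1 and DNAJC15. HSPA12A, an atypical HSP70, was at 1.81, 3.08 and 2.95 CPM in sh-IGFBP6 against 21.6, 23.1 and 23.5 (log2 fold change -3.07, SE 0.22, edgeR adjusted p = 2.1e-26). HSPB8 was at 0.301, 0.964 and 0.985 CPM against 3.18, 4.81 and 5.03 (-2.45, SE 0.45, 1.1e-06), and DNAJC15 at 28.9, 23.5 and 24.4 against 49.9, 55.3 and 58.7 (-1.12, SE 0.12, 6.3e-16). DNAJB6 was the only one of 7 DNAJB genes that was higher (0.24), and of the DNAJC genes 9 were higher and 3 lower. HSPA1B was lost without sh-LUC control replicate 1 (edgeR adjusted p = 0.0647) or sh-IGFBP6 control replicate 2 (0.0594). DNAJB4 was lost without sh-LUC control replicate 3 (0.233) or sh-IGFBP6 control replicate 2 (0.0985), DNAJA1 (-0.21) without sh-IGFBP6 control replicate 2 (0.0749), and HSPH1 without sh-LUC control replicate 1 (0.1) or sh-IGFBP6 control replicate 2 (0.0852) or 3 (0.0708).

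With erastin in sh-IGFBP6 cells the inducible HSP70 genes, DNAJB1, DNAJB2, HSPH1 and both HSP90 genes rose, and the chaperonin did not. Of 61 members 20 rose, 8 fell and 33 were not called (median log2 fold change 0.13 against 0.00), where 29.0% of all genes were called (14.7% higher, 14.3% lower). The 32.8% of members with a rise stood above the background and the 13.1% with a fall near it. DESeq2 called 14 higher and 8 lower, and edgeR without sh-IGFBP6 control replicate 2 called 14 and 7. In 41 members the libraries did not overlap, against 36.5% of all genes. Without the shallow erastin replicate 3, 28 members were called. Mitochondrially encoded messenger RNAs took 3.5976% to 7.4564% of counts with erastin and 2.0695% to 2.6764% in vehicle, and their part in these results was not tested. HSPA6 was at 9.99, 8.82 and 7.62 CPM (the last on 2 counts) against 0.301, 0.193 and 0.738 in vehicle (log2 fold change 4.49, SE 0.88, edgeR adjusted p = 0.00165). HSPA1A was at 99.3, 111 and 122 CPM against 8.43, 7.71 and 8.61 (3.68, SE 0.14, 9.0e-31), and HSPA1B at 237, 232 and 290 against 49.1, 38.5 and 48.5 (2.42, SE 0.13, 1.8e-10). All vehicle libraries lay under all erastin libraries in these 3 genes.

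DNAJB1 was at 277, 282 and 286 CPM (log2 fold change 1.75, SE 0.07, edgeR adjusted p = 1.0e-37). DNAJB4 was at 30.7, 26.5 and 57.1 CPM (0.90, SE 0.14, 1.1e-07). HSPH1 (0.99), HSP90AA1 (0.72), HSPA8 (0.44) and HSP90AB1 (0.23) rose too. DNAJB2, a J-domain protein that delivers clients to the proteasome, rose here (37.8, 31.9 and 76.2 CPM against 19.3, 16.0 and 17.0; 1.09, SE 0.13, 2.1e-11), with its highest value in the shallow replicate 3. HSPB1, at 207, 216 and 202 CPM against 131, 134 and 152, rose by 0.60 (SE 0.07, 3.6e-12).

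Of the chaperonin 0 subunits rose by edgeR, by DESeq2 or at an unadjusted edgeR p below 0.05. CCT8 (log2 fold change -0.20, edgeR adjusted p = 0.00929), CCT7 (-0.17, 0.00768) and CCT6A (-0.15, 0.0446) fell, and the other 5 were not called. Among the mitochondrial chaperones HSPD1 rose by 0.15 (SE 0.06, 0.0376), and HSPA9 (-0.10) and HSPE1 (0.24) were not called. Also lower were HSPA14 (-0.50, 8.1e-04) and, among DNAJC genes, DNAJC22 (-0.76, 4.8e-04), DNAJC13 (-0.33, 2.0e-04), an endosomal protein, and DNAJC5 (-0.22, 0.00317). HSPBP1 fell by 0.32 (0.00113). HSPD1 was lost without any 1 of vehicle replicates 2 and 3 and erastin replicates 1 and 2 (0.107 to 0.224). CCT6A was lost without vehicle replicate 1 or 2 or any erastin replicate (0.0605 to 0.230), and DNAJA1 (0.19) without vehicle replicate 2 or erastin replicate 1 or 2 (0.0666 to 0.218). With library size only, HSPD1 (-0.23), HSP90AB1 (-0.17) and DNAJA1 (-0.12) had the opposite sign, and the all-gene median was -0.19. Library size alone leaves out the TMM factor of erastin replicate 3, which was 0.431. That scaling left 7 members higher and 4 lower, and HSPA8 (0.05, edgeR adjusted p = 0.914), HSP90AA1 (0.29, 0.427), HSPB1 (0.27, 0.43) and the 3 chaperonin subunits (0.0681 to 0.112) were no longer called. HSPD1 (0.122) and DNAJA1 (0.11) were among the members that DESeq2 did not call. With no filter on low counts HSP90AB1 (edgeR adjusted p = 0.102), DNAJA1 (0.155), CCT6A (0.169) and HSPD1 (0.314) were among the calls lost.

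With DHA in sh-IGFBP6 cells HSPA1A, HSPA1B, HSPA6, HSPA8, HSPH1, DNAJB1, DNAJB2, DNAJB4 and both HSP90 genes rose. With DHA 24 members of 61 rose, 5 fell and 32 were not called (median log2 fold change 0.19 against 0.00), beside a background of 34.2% called (17.4% higher, 16.8% lower). In 33 members the libraries did not overlap, against 44.0% of all genes. HSPA1A was at 161, 163 and 145 CPM against 8.43, 7.71 and 8.61 in vehicle (log2 fold change 4.25, SE 0.13, edgeR adjusted p = 7.4e-36). HSPA1B was at 591, 649 and 636 against 49.1, 38.5 and 48.5 (3.80, SE 0.12, 6.6e-14), and HSPA6 at 12.3, 11.1 and 9.03 against 0.301, 0.193 and 0.738 (4.68, SE 0.83, 6.4e-04). Each stood well clear of vehicle in all 3 libraries.

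DNAJB1 was at 387, 389 and 406 CPM (log2 fold change 2.24, SE 0.07, edgeR adjusted p = 8.2e-48), DNAJB4 at 49.3, 48.9 and 41.4 (1.55, SE 0.13, 8.6e-21) and DNAJB2 at 31.5, 36.1 and 40.6 (1.07, SE 0.13, 4.4e-12). HSPA8 was at 3465, 3490 and 3302 CPM against 2001, 1635 and 2001 (0.86, SE 0.07, 1.9e-20), above its level in every other group. HSPH1 (0.84), HSP90AA1 (0.59), HSP90AB1 (0.28), HSPE1 (0.61), HSPA9 (0.40) and HSPD1 (0.36) rose. DNAJA1 (0.42), DNAJA2 (0.19) and DNAJB6 (0.26) made smaller rises.

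Of the chaperonin only TCP1 was called (log2 fold change 0.19, SE 0.05, edgeR adjusted p = 0.00266). HSPB1 (0.13) and HSPB8 (1.00, at most 2.04 CPM) were not called. The DNAJC class split evenly, with 5 rises and 5 falls. DNAJC2 (0.64), DNAJC24 (0.46), DNAJC7 (0.27), DNAJC8 (0.25) and DNAJC5 (0.25) rose, and DNAJC22 (-0.92), DNAJC19 (-0.52), DNAJC15 (-0.39), DNAJC6 (-0.27) and DNAJC13 (-0.20) fell. TCP1 was lost without sh-IGFBP6 control replicate 3 (edgeR adjusted p = 0.0677). DNAJC15 was lost without control replicate 1 (0.104) or DHA replicate 3 (0.0577), and DNAJC6 without control replicate 1 (0.0885) or 2 (0.0556). With library size only HSP90AA1 (0.51), HSP90AB1 (0.20), HSPA9 (0.32), HSPD1 (0.28), DNAJA1 (0.34), TCP1 (0.11) and DNAJC6 (-0.35) were not called (edgeR adjusted p 0.0941 to 0.823).

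The responses of the lines were then compared directly, by an interaction term that gives the change in sh-IGFBP6 minus the change in sh-LUC. For erastin 24 of 61 members had a smaller or more negative change in sh-IGFBP6 cells, 4 a larger one and 33 were not called (median -0.24 against 0.02), beside 26.2% of all genes called (14.1% higher, 12.0% lower). Without sh-IGFBP6 erastin replicate 3, 28 members were called. Among the called members the largest differences were those of HSPA1B (log2 -2.20, SE 0.18, edgeR adjusted p = 1.1e-07) and HSPA1A (-1.52, SE 0.24, 7.4e-07). HSP90AA1 (-1.07, SE 0.10, 6.1e-18), HSPD1 (-1.07, SE 0.08, 2.6e-22), HSPA9 (-1.06, SE 0.08, 2.0e-23) and DNAJB6 (-1.06, SE 0.09, 1.4e-20) followed. HSPH1 (-0.92), DNAJB4 (-0.84), HSPA8 (-0.72), HSP90AB1 (-0.69) and DNAJB1 (-0.66) were called in the same direction, as were 6 chaperonin subunits led by TCP1 (-0.58). The 4 in the other direction were DNAJB2 (0.94, SE 0.18, 8.6e-06), DNAJB5 (0.92), DNAJC27 (0.87) and HSPB1 (0.28). DESeq2 called 1 higher and 21 lower, without DNAJB5 (adjusted p = 0.0719), DNAJC27 (0.0855) and HSPB1 (0.1). It called 0 DNAJC genes lower, where edgeR called 3. With library size only 1 was higher and 11 lower, and DNAJB1 (-0.90, edgeR adjusted p = 0.0709), HSP90AB1 (-0.98, 0.0508) and the 6 chaperonin subunits (0.0917 to 0.402) were not called.

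The same term was fitted for DHA. By edgeR 13 of 61 members had a larger change in sh-IGFBP6 cells and 0 a smaller one (median 0.10 against 0.00), beside 20.6% of all genes called (10.4% higher, 10.2% lower). DESeq2 called 12 and 0, and at an unadjusted edgeR p below 0.05 there were 18 and 2. HSPA1A (log2 3.73, SE 0.24, edgeR adjusted p = 4.6e-19), HSPA1B (2.95, SE 0.18, 2.4e-09), DNAJB1 (2.09, SE 0.09, 2.9e-34) and DNAJB4 (1.36, SE 0.18, 2.2e-09) led. DNAJB2 (1.21), HSPH1 (0.95), HSPA8 (0.86), DNAJA1 (0.63), DNAJC2 (0.59), HSP90AA1 (0.55), HSPE1 (0.53), DNAJB6 (0.31) and HSPD1 (0.24) completed the 13. HSPD1 (adjusted p = 0.0526), HSPE1 (0.0661) and DNAJC2 were not called by DESeq2. With library size only HSPH1 (0.81), HSPA8 (0.73), HSP90AA1 (0.42), DNAJA1 (0.49), HSPE1 (0.39) and HSPD1 (0.10) were not called (edgeR adjusted p 0.129 to 0.929). HSP90AB1 (0.18), HSPA9 (0.02) and the 8 chaperonin subunits were not called. The erastin and DHA differences share the vehicle libraries of both lines, so their values are given side by side and not compared.

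HSPA6 was not called in either difference by edgeR, in spite of its size: -5.38 for erastin (SE 2.35, edgeR adjusted p = 0.119) and 3.09 for DHA (SE 1.70, 0.245), with 5 counts in all in sh-IGFBP6 vehicle and 10 in sh-LUC vehicle. The erastin difference was called by DESeq2 (-5.37, adjusted p = 3.0e-05), by edgeR on the 4 groups alone (-5.41, 9.0e-06) and with library size only (-5.44, 0.003). The DHA difference was called by DESeq2 (3.16, adjusted p = 0.0276) and by edgeR without sh-LUC DHA replicate 3 (4.42, 3.7e-06). Other calls rested on 1 library. For erastin they were CCT2 (lost at 0.0633 and 0.0705 without sh-LUC erastin replicate 2 or sh-LUC control replicate 1), CCT8 (0.0600 and 0.153 without sh-LUC erastin replicate 2 or sh-LUC control replicate 2) and DNAJB5 (0.0590 and 0.0969 without sh-IGFBP6 control replicate 3 or sh-IGFBP6 erastin replicate 1). DNAJC27 was lost at 0.0567 to 0.0855 without sh-IGFBP6 control or erastin replicate 1 or sh-LUC control replicate 1. HSPB1 was lost at 0.0613 to 0.123 without any of 6 libraries, namely sh-IGFBP6 control replicates 1 and 2, sh-IGFBP6 erastin replicates 1 and 2, sh-LUC control replicate 1 and sh-LUC erastin replicate 3. For DHA they were HSPE1 (0.0516 and 0.0933 without sh-IGFBP6 control or DHA replicate 2) and HSPD1 (0.0508 to 0.141 without any of 6 libraries, namely sh-IGFBP6 control replicates 2 and 3, sh-IGFBP6 DHA replicate 3, sh-LUC control replicate 2 and sh-LUC DHA replicates 1 and 2).

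**Figure D4:**
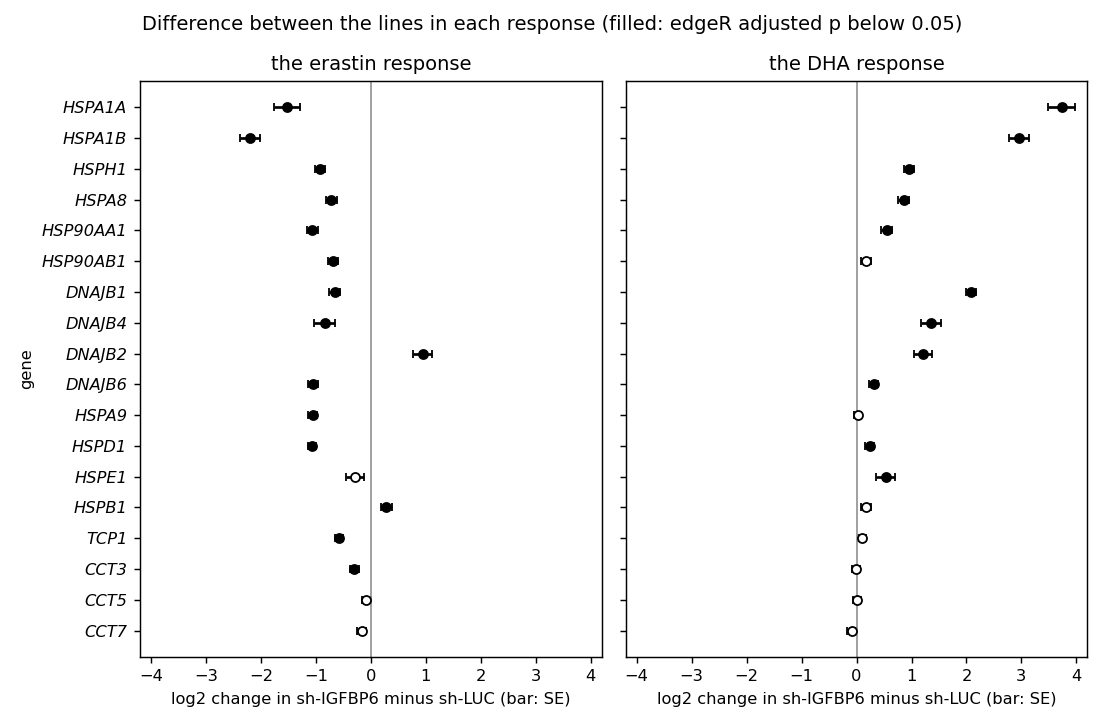
Difference between the lines in the erastin response (left) and the DHA response (right) for 18 members, as the log2 change in sh-IGFBP6 minus that in sh-LUC. Bars are 1 SE, worked back from the test statistic, and filled points were called. HSPA1A lies at -1.52 for erastin and 3.73 for DHA, and the chaperonin subunits CCT5 and CCT7 were not called in either panel.

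The compounds were set against each other within each line. In sh-LUC cells 32 of 61 members were lower with DHA than with erastin and 7 higher (50.2% of all genes called, 26.0% higher and 24.2% lower), and in 40 the libraries did not overlap, against 55.9% of all genes. HSPA6 (log2 fold change -8.29), HSPA1A (-4.68), HSPA1B (-3.76) and DNAJB1 (-2.25) were furthest apart, and DNAJC22 (0.58), HSPA12A (0.40), DNAJC17 (0.40) and DNAJC5 (0.39) were the largest in favour of DHA. Scaling by library size only gave 7 higher and 17 lower. In sh-IGFBP6 cells 15 members were higher with DHA and 5 lower (25.9% of all genes called, 13.1% higher and 12.8% lower), and in 32 the libraries did not overlap, against 31.6% of all genes. Without erastin replicate 3, 19 members were called, and with library size only 9, HSPB1 (-0.21), DNAJC15 (-0.29) and DNAJC27 (-0.58) not among them. DESeq2 called 2 higher and 29 lower in sh-LUC, with DNAJC17 (adjusted p = 0.141) and DNAJC22 (0.0501) among the members lost. In sh-IGFBP6 it called 12 higher and 2 lower, and DNAJC14, DNAJC15 (0.192) and DNAJC27 (0.0755) were among those lost. HSPA1B was at 591, 649 and 636 CPM with DHA and 237, 232 and 290 with erastin (1.39, SE 0.11, edgeR adjusted p = 3.4e-08). DNAJB4 (0.65), HSPA1A (0.57), HSPA9 (0.50), DNAJB1 (0.49) and HSPA8 (0.42) were higher with DHA too. HSPB1 (-0.46, SE 0.07, 3.0e-08) was higher with erastin, as were DNAJB5 (-0.78), DNAJC27 (-0.63), DNAJC15 (-0.36) and DNAJC14 (-0.35). HSPA6 (0.19, SE 0.41), HSPH1 (-0.15), HSP90AA1 (-0.13) and HSP90AB1 (0.06) were not called between the compounds in this line. In sh-LUC, DNAJC22 was lost without erastin replicate 1 (edgeR adjusted p = 0.111) or DHA replicate 2 (0.0504), and DNAJC17 without any DHA replicate or erastin replicate 2 or 3 (0.0512 to 0.105). In sh-IGFBP6, DNAJB5 was lost without DHA replicate 3 (0.0571) or erastin replicate 1 (0.1). There DNAJC27 was lost without DHA replicate 1 or erastin replicate 1 or 2 (0.0510 to 0.0827), and DNAJC15 without DHA replicate 1 or 3 or erastin replicate 1 (0.105 to 0.590).

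Set against the promoter letters, 17 of the 18 tested members with a 2-unit match rose with erastin in sh-LUC cells (median log2 fold change 1.15), and of 37 without one 15 rose and 3 fell (0.13). Over all tested genes with a window, 22.0% of the 1297 with the letters rose and 21.5% of the 9659 without, shares that lie close together. With erastin in sh-IGFBP6 cells 11 of 18 members with a match rose (0.52), and of 37 without one 9 rose and 5 fell (0.06), beside 16.7% and 15.4% of all genes with and without the letters that rose. With DHA in sh-IGFBP6 cells 13 of 18 members rose and 1 fell (0.43), against 10 and 3 of 37 (0.11), beside 19.7% and 18.5% of all genes that rose. With DHA in sh-LUC cells 2 of 18 members rose and 2 fell (0.11), against 3 and 1 of 37 (0.02), beside 7.48% and 7.69% of all genes that rose. HSPH1, called higher under 3 of the 4 treatments, had no match in its window. HSPA6 is among the 18 and entered the set only through treated libraries. These counts were made with the responses known and describe the letters only.

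Genes that work with the members were counted by list, to be read against all tested genes: 21.4% rose and 24.4% fell with erastin in sh-LUC, 7.14% and 9.63% with DHA in sh-LUC, 14.7% and 14.3% with erastin in sh-IGFBP6, and 17.4% and 16.8% with DHA in sh-IGFBP6. Among 5 heat shock factors and regulators, 1 rose (HSF2, log2 fold change 0.38) and 1 fell (HSBP1L1, -0.48) with erastin in sh-LUC, and HSF1 itself was not called under any treatment, at 133 ± 13.8 CPM in sh-LUC vehicle (SD, n = 3) and 125 ± 3.18 with erastin. Of 28 HSP70 and HSP90 cochaperones 15 rose and 2 fell with erastin in sh-LUC, 4 rose with DHA in sh-LUC, 9 and 4 with erastin in sh-IGFBP6, and 14 and 1 with DHA in sh-IGFBP6. CHORDC1, an HSP90 partner, went from 59.8 ± 3.62 to 292 ± 41.1 CPM with erastin in sh-LUC (2.28) and from 96.9 ± 6.38 to 137 ± 10.7 in sh-IGFBP6 (0.45), a difference between lines of -1.83 (edgeR adjusted p = 3.4e-17). BAG3, an HSP70 exchange factor, went from 168 ± 9.33 to 371 ± 42.5 CPM with erastin (1.14) and to 161 ± 8.71 with DHA (-0.06) in sh-LUC. In sh-IGFBP6 it went from 101 ± 11.2 to 207 ± 14.6 CPM with DHA (1.04), with a difference between lines of 1.09 for DHA (3.9e-15). STIP1, which joins HSP70 to HSP90, rose under erastin in both lines (0.62 and 0.19).

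Prefoldin, which hands actin and tubulin to the ring, and the genes listed with it followed no common course. Of these 12, 2 rose and 3 fell with erastin in sh-LUC, 1 and 2 with erastin in sh-IGFBP6 and 1 and 1 with DHA in sh-IGFBP6. Of 13 other folding and disaggregation genes, among them the endoplasmic reticulum members that the set leaves out, 8 rose with erastin in sh-LUC, 5 rose and 3 fell with DHA in sh-LUC, 6 and 1 with erastin in sh-IGFBP6, and 9 rose with DHA in sh-IGFBP6. HSPA5, the HSP70 of the endoplasmic reticulum, went from 563 ± 25.3 to 1710 ± 18 CPM with DHA in sh-IGFBP6 (log2 fold change 1.60) and from 635 ± 46.2 to 721 ± 11 in sh-LUC (0.18), a difference between lines of 1.42 (edgeR adjusted p = 1.4e-31).

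Across the 18 libraries, the genes whose log2 CPM lay closest to that of HSPA6 were IER5 (Pearson r 0.964), HSPH1 (0.961), ABL2 (0.957), ZZEF1 (0.953) and SLC39A14 (0.952). HSPH1 is a member and the others are not. The 18 points share 6 groups, and the 3 sh-LUC erastin libraries lie far from the rest, so these values are a description.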

How the data were processed

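Total RNA was extracted with QIAzol and miRNeasy, depleted of ribosomal RNA and made into libraries with MGIEasy kits, per the labels' protocols. Per the submitters' processing notes, cutadapt 4.4, STAR 2.7.7a and featureCounts were used with GRCh38; no source used here gives the featureCounts version, its strand setting or the annotation. The authors deposited whole-number counts per gene, which are the only unit used. The 2 lines that name no gene held at most 0.01082% of a library's counts and were left out.

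Symbols, exon lengths and positions came from GENCODE release 29 (58463 of 60709 genes had a model), and promoter windows from RefSeq (GRCh38.p14). The model was edgeR's, version 4.0.16 under R 4.3.3 (quasi-likelihood, robust, TMM, 1 coefficient per group over all 18 libraries, 12 residual degrees of freedom). The filter filterByExpr (minimum count 10, minimum total 15) left 15189 genes. P-values were adjusted over all of them by the Benjamini-Hochberg method, with a threshold of 0.05. The pooled biological coefficient of variation was 6.29%. Each SE is the absolute log2 fold change divided by the square root of the quasi-likelihood F statistic, so it restates the test. Where F was below 1, the SE came from the fitted means and dispersions. For genes with very few counts in a group, HSPA6 among them, it is not a measure of the spread between libraries. CPM per kilobase used the union of exons. The fit was also run on counts simulated from its own fitted means and dispersions, which cannot show whether the model suits these libraries. No 2 libraries held identical values.

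A fixed list of key members, among them HSPA1A, HSPA8, DNAJB1 and the chaperonin subunits, was to be named whatever they did. To these were added the largest called rises and falls in each comparison, above a set minimum mean CPM. Members called against the direction of their class under a treatment were added too, with further members named to account for each class. The members and lists were chosen with earlier results of these data known. Alternatives were DESeq2 1.42.0, scaling by library size only, no filter on low counts and a filter of at least 10 counts in 3 libraries. The others were removal of the mitochondrial ribosomal RNAs, the groups compared only, a replicate block and leaving out each library in turn. Leaving out sh-IGFBP6 erastin replicate 3 from the counts of calls was chosen after seeing the data.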

Additional observations from a re-analysis of the deposited data

Results flagged for a closer look

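These members had an erastin or DHA response that differed between the lines by the interaction term of edgeR's quasi-likelihood test, and every value is the log2 change in sh-IGFBP6 minus that in sh-LUC. For erastin the change was smaller or more negative in sh-IGFBP6 for 24. The HSP70 and HSP110 genes were HSPA1B (-2.20), HSPA1A (-1.52), HSPA4L (-1.01), HSPH1 (-0.92), HSPA8 (-0.72) and HSPA4 (-0.38), and the HSP90 genes HSP90AA1 (-1.07) and HSP90AB1 (-0.69). J-domain genes were DNAJB6 (-1.06), DNAJC25 (-1.06), DNAJB4 (-0.84), DNAJB1 (-0.66), DNAJC11 (-0.42) and DNAJC6 (-0.37). DESeq2 did not call DNAJC25, DNAJC11 or DNAJC6. Mitochondrial chaperones were HSPD1 (-1.07) and HSPA9 (-1.06), and HSPBAP1 (-0.69) and HSPBP1 (-0.43) went the same way. Of HSPBAP1 and HSPBP1, DESeq2 called only 1. Chaperonin subunits were TCP1 (-0.58), CCT6A (-0.33), CCT4 (-0.33), CCT3 (-0.30), CCT8 (-0.25) and CCT2 (-0.24). The change was larger in sh-IGFBP6 for DNAJB2 (0.94), DNAJB5 (0.92), DNAJC27 (0.87) and HSPB1 (0.28), of which DESeq2 called DNAJB2 only.

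For DHA the change was larger in sh-IGFBP6 for 13 members. They were HSPA1A (3.73), HSPA1B (2.95), HSPH1 (0.95), HSPA8 (0.86) and HSP90AA1 (0.55), the J-domain genes DNAJB1 (2.09), DNAJB4 (1.36), DNAJB2 (1.21), DNAJA1 (0.63), DNAJC2 (0.59) and DNAJB6 (0.31), and the mitochondrial HSPE1 (0.53) and HSPD1 (0.24). DESeq2 did not call DNAJC2, HSPE1 or HSPD1.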

How the results depend on the processing

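Of 135 alternative counts of called members, 127 stayed within 1.5-fold of the reported count. The 8 that moved all came from scaling by library size only. They were 23 and 3 for erastin and DHA in sh-LUC, 11 and 13 in sh-IGFBP6, 12 and 5 for the line differences, and 24 and 9 for DHA against erastin in sh-LUC and sh-IGFBP6. That scaling reversed DNAJA1 (-0.12), HSP90AB1 (-0.17) and HSPD1 (-0.23) for erastin in sh-IGFBP6. The TMM factor of sh-IGFBP6 erastin replicate 3 was 0.431, against 1.04 and 1.07 in replicates 1 and 2. Scaling by library size only leaves these factors out, and all comparisons under it share 1 fit. The part of replicate 3 in the lost and reversed calls was not tested. Leaving out 1 library at a time gave 34 to 37 and 6 to 9 called members for erastin and DHA in sh-LUC, 21 to 28 and 24 to 28 in sh-IGFBP6, and 40 to 46 between untreated lines. It gave 23 to 28 and 11 to 15 for the line differences, and 31 to 38 and 14 to 19 for DHA against erastin. Replicate numbers did not pair the libraries (median correlation of same-numbered deviations 0.00465, 1 of 45 pairs over 0.1); a replicate block gave 38, 8, 27, 29 and 46 called members in the 4 treatment comparisons and the untreated lines. Of 2510 alternative values of 170 named member results, 2299 kept their call, 203 lost it, 5 gained one and 3 reversed. HSPA6 had 1 to 5 counts in each vehicle library, which limits its folds.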

Other observations

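Partner genes outside the set were also counted between the untreated lines, beside 32.5% of all genes higher in sh-IGFBP6 cells and 32.1% lower. Of 28 HSP70 and HSP90 cochaperones, 17 were higher in sh-IGFBP6 cells and 4 lower, and of 12 tested prefoldin and chaperonin cochaperones 4 were higher and 2 lower. NUDC, an HSP90 cochaperone, was at 71.5 ± 7.09 CPM (SD, n = 3) in sh-LUC and 244 ± 15.5 in sh-IGFBP6 (log2 fold change 1.79), and AHSA1, which starts the ATPase cycle of HSP90, at 63.4 ± 1.09 and 183 ± 3.56 (1.53). TRAP1, the mitochondrial HSP90, was at 23.5 ± 0.850 and 87.2 ± 7.64 CPM (1.89), and the prefoldin subunit PFDN6 at 20.5 ± 2.19 and 67.6 ± 3.36 (1.73). FKBP4 (1.60) and BAG2 (1.34) were higher too, whereas BAG3 (-0.72) and PDCL (-0.96) were lower. All 8 were called by edgeR's quasi-likelihood test. The background for this comparison, 64.6% of all genes called, applies to these genes as well, and the share called of the 12 prefoldin and chaperonin cochaperones lay below it.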
